A study of Homo sapiens with 6 samples.

Results

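The 69 genes described here encode the translation initiation factors, the translation elongation factors and the proteins named after them that bind or modify them. They were taken from an expression table of 18249 genes as every gene whose symbol begins with EIF and a digit from 1 to 6, or with EEF and 1 or 2. Of the 69 genes, 65 had an expression value of 1 or more in some library and entered the comparisons, as did 12375 genes of the whole table. The other 4, EIF2S3B, EIF4E1B, EIF4EBP3 and EIF1AY, did not.

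The cells were TE-10, an established human line of the esophageal epithelium that derives from a carcinoma. RNA-seq of polyadenylated RNA was available for 1 library from cells in which a stably expressed hairpin lowers METTL3 (hairpin 1), 1 library with a second such hairpin (hairpin 2), and 1 control library of cells with normal METTL3. METTL3 is the catalytic subunit of the complex that places N6-methyladenosine (m6A) on mRNA. Regions of m6A came from immunoprecipitation of methylated RNA in TE-10 cells with normal METTL3, with 2 immunoprecipitated libraries made with different antibodies and 1 input library. The labels do not say whether the control carried a hairpin of its own, whether the lines were clones or pools, or how many cultures the libraries represent, so the p-values below measure only the spread between these libraries, which may be technical.

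Initiation factors bring the small ribosomal subunit, the initiator tRNA and the mRNA together. eIF2 carries the initiator tRNA, eIF3 is the large scaffold on the small subunit, and eIF4F binds the cap of the mRNA and unwinds its leader. eEF1A then delivers each aminoacyl-tRNA to the ribosome and eEF2 moves the ribosome along the mRNA by a codon. Many mRNAs of this machinery belong to the terminal oligopyrimidine (TOP) class, whose transcripts begin with a cytosine and an unbroken run of pyrimidines, and whose translation is controlled by mTOR and LARP1. m6A in an mRNA, including in its untranslated regions (UTRs), is bound by reader proteins that alter its decay and translation.

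The transcript starts were read from RefSeq promoter entries (build GRCh38.p14), which matched 51 of the 65 genes. The 14 with no entry were EEF1A2, EEF1AKMT1, EEF1AKMT3, EEF1D, EEF2KMT, EIF2AK1, EIF2S2, EIF3A, EIF3CL, EIF3E, EIF3G, EIF3H, EIF3L and EIF4EBP1. The 8 sequences below are shown because they contrast genes with and without the TOP-like start, and because the genes concerned are elongation factors or initiation factors described further on. Each line gives 10 bases before the annotated start and 20 bases from it, 5′ to 3′ on the strand of the gene, and capitals mark the pyrimidine run that begins at the first transcribed base.
EEF2: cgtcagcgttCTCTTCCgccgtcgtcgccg
EEF1A1: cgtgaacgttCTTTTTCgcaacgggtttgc
EEF1B2: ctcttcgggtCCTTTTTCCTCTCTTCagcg
EIF2S3: gatttccttcCTCTTTTggcaacatggcgg
EIF3M: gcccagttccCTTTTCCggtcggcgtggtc
EIF4B: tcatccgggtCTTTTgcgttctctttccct
EIF4A2: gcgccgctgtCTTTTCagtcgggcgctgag
EEF1G: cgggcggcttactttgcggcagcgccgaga
The windows lie at chr19:3985444-3985473 on the minus strand for EEF2, chr6:73521013-73521042 on the minus strand for EEF1A1, chr2:206159885-206159914 on the plus strand for EEF1B2 and chrX:24054946-24054975 on the plus strand for EIF2S3. Those of EIF3M at chr11:32583821-32583850, EIF4B at chr12:53006446-53006475 and EIF4A2 at chr3:186783567-186783596 are on the plus strand, and that of EEF1G at chr11:62573872-62573901 is on the minus strand. EEF1G has no capitals because its annotated first base is an adenine, followed by ctttg. The second annotated start of EEF1B2 has no such run.

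Before the results, the libraries themselves were compared. METTL3 was at 8.35 in hairpin 1 and 4.99 in hairpin 2, against 20.8 in the control, in the deposited expression values, whose scale the authors do not state and whose sequencing depth is unknown. All 8 genes listed for squamous esophageal cells (KRT5, KRT14, KRT17, KRT6A, S100A2, TP63, SOX2 and EPCAM) were at 1 or more in every library, with a summed level of 4497 in hairpin 1, 2811 in hairpin 2 and 4641 in the control. The hairpin 2 library stood apart: the 5 genes listed to look for other cells (VIM, COL1A1, PTPRC, PECAM1 and CDKN2A) summed to 91.9 in hairpin 1, 459.8 in hairpin 2 and 90.9 in the control. CDKN2A is not specific to a cell type, so this sum is no measure of other cells. VIM, a filament protein of mesenchymal cells, was at 311 and CDKN2A, a cell cycle inhibitor, at 145 in hairpin 2, against 88.1 and 0 in hairpin 1 and 87.0 and 0.04 in the control. COL1A1, a collagen of mesenchymal cells, was at 3.6 in hairpin 1, 3.59 in hairpin 2 and 3.34 in the control, so the higher sum came from VIM and CDKN2A. PTPRC and PECAM1, which define leukocytes and endothelium, stayed at or under 0.36 in every library. The part of these differences in the results below was not tested, and in bulk RNA fewer cells of a type and less RNA per cell cannot be told apart. For this reason each hairpin library is given separately, and the values of hairpin 1 are those without hairpin 2.

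The machinery as a whole was close to the control in hairpin 1 and somewhat higher in hairpin 2. The median difference from control over the 65 genes, on the log2(value + 1) scale, was 0.04 in hairpin 1 and 0.18 in hairpin 2, beside medians of -0.01 and 0.00 over all 12375 genes tested. In hairpin 1, 1 gene was at least 1.5-fold higher than the control (EIF3CL) and 1 at least 1.5-fold lower (EEF1A2), which is 1.54% each, where 1.78% of all genes tested were higher and 2.51% lower. In hairpin 2, 9 of the 65 were at least 1.5-fold higher, or 13.8%, beside 8.69% of all genes tested, and 0 were lower, beside 4.86%. The 9 were EEF2, EIF2S3, EIF3CL, EIF4EBP1, EIF3M, EIF5AL1, EEF1G, EIF3E and EIF3G, and with quantile normalization EEF1G was below the 1.5-fold line. The count was 7 with near-identical copies left out and 6 with median-of-ratios scaling. The high EEF2 of hairpin 2 was known when the genes were chosen, so EEF2 adds no independent support to these counts. Among genes with a mean value of at least 5, the share higher in hairpin 2 was 12.9% of 62 factor genes and 5% of 8258 genes. The middle 90% of the factor genes ran from -0.37 to 0.64 in hairpin 2, and that of the 8258 genes from -0.58 to 0.58. Both differences share the same control library, and 1 library against 1 gives no test.

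**Figure D1:**
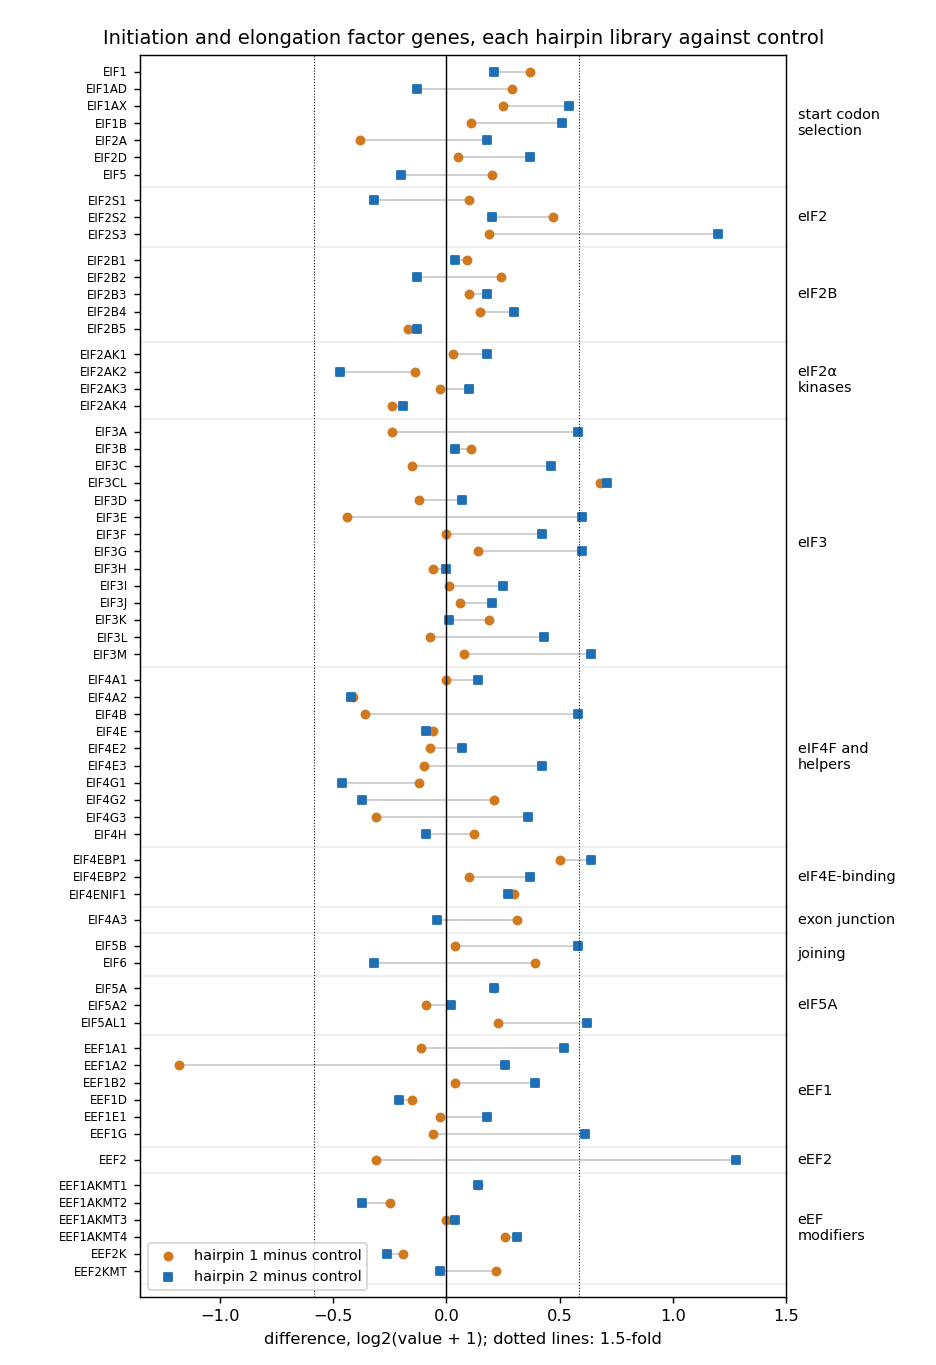
Difference from control on the log2(value + 1) scale for the 65 genes, with an orange circle for hairpin 1 and a blue square for hairpin 2, 1 library each, grouped by role; dotted lines mark 1.5-fold. EEF1A2 in hairpin 1 (-1.18) and EEF2 (1.28) and EIF2S3 (1.20) in hairpin 2 lie farthest from 0.

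No gene of the machinery passed the test of knockdown against control, which takes both hairpin libraries together. limma called 0 of 12375 genes at an adjusted p under 0.05 (0% of genes tested), and 162 genes had an unadjusted p under 0.05, EIF3CL being 1 of them and no other factor gene. The adjusted p was 1 for each of the 65 genes, with Benjamini-Hochberg adjustment over all genes tested. With 1 control library the spread came from the 2 hairpin libraries alone, which left 1 residual degree of freedom, and the control was assumed to vary like them.

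EEF2, the elongation factor that translocates the ribosome, had the largest gap between the hairpin libraries among the 65 genes. Its level was 435 in hairpin 1 and 1312 in hairpin 2, against 538 in the control. The control lay between the knockdown libraries, nearer to hairpin 1. The difference from control was -0.31 in hairpin 1 and 1.28 in hairpin 2 on the log2 scale, so that the level in hairpin 2 was 2.44-fold the control and 3.02-fold hairpin 1. Over 8258 genes with a mean of at least 5, EEF2 ranked 66th from the highest for hairpin 2 against control, and 936th from the lowest for hairpin 1 against control. The mean of both hairpins differed from control by 0.49 ± 0.63 (SE, limma adjusted p = 1), less than the spread between the hairpin libraries.

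The eEF1 complex pairs the tRNA carrier eEF1A with an exchange factor made of eEF1B2, eEF1D and eEF1G. EEF1A1, the form found in most cells, was at 1881 in hairpin 1 and 2918 in hairpin 2, against 2031 in the control. EEF1G, the scaffold subunit, was at 1438 in hairpin 1 and 2296 in hairpin 2, against 1500.5 in the control. Hairpin 1 was slightly below the control for both genes and hairpin 2 well above it, at differences of 0.52 for EEF1A1 and 0.61 for EEF1G on the log2 scale. EEF1B2, an exchange subunit, was at 478 in hairpin 1 and 609.8 in hairpin 2, against 467 in the control. EEF1D, the other exchange subunit, did not share that order, with 719 in hairpin 1 and 687 in hairpin 2, both below the 797 of the control. EEF1E1, a scaffold protein of the aminoacyl-tRNA synthetase complex despite its symbol, was at 43.3 in hairpin 1, 50.1 in hairpin 2 and 44.2 in the control. Over the 6 genes of this group the median difference from control was -0.09 in hairpin 1 and 0.32 in hairpin 2. For EEF1A1 the mean of both hairpins differed from control by 0.21 ± 0.37 on the log2 scale (SE, limma adjusted p = 1), and by 0.02 with quantile normalization. That scaling lowers the hairpin 2 difference to 0.20 for EEF1A1 and 0.35 for EEF1G, and leaves 1.18 for EEF2.

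EEF1A2, the form of eEF1A known from muscle and neurons and from some tumors, had the lowest difference of all 65 genes. It was at 93.4 in hairpin 1 and 256 in hairpin 2, against 213 in the control. Hairpin 1 was the low library and hairpin 2 was above the control. The difference from control was -1.18 in hairpin 1 and 0.26 in hairpin 2 on the log2 scale, and hairpin 1 placed EEF1A2 20th from the lowest of 8258 genes. The mean of both hairpins was -0.46 ± 0.57 from control (SE, limma adjusted p = 1).

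**Figure D2:**
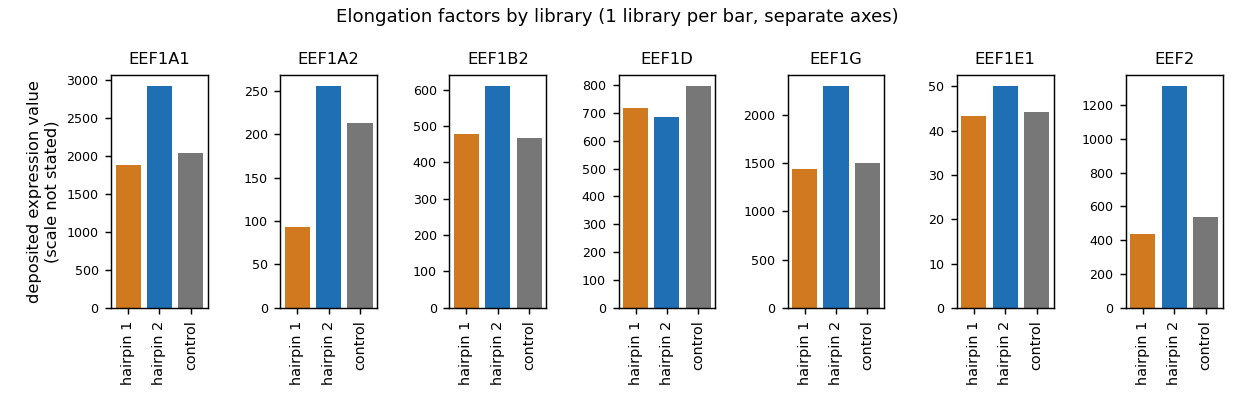
Deposited expression values of the 7 elongation factor genes in hairpin 1, hairpin 2 and the control, 1 library per bar, with a separate axis from 0 for each gene and no error bars because each bar is 1 library. EEF2 at 1312 in hairpin 2 and EEF1A2 at 93.4 in hairpin 1 are the bars farthest from their control.

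Modifiers of the elongation factors all lay within 1.5-fold of the control. The 6 genes were the methyltransferases EEF1AKMT1 to EEF1AKMT4 and EEF2KMT and the kinase EEF2K, which phosphorylates and inhibits eEF2. Their differences from control ran from -0.25 to 0.26 in hairpin 1 and from -0.37 to 0.31 in hairpin 2. EEF2K was at 6.95 in hairpin 1 and 6.55 in hairpin 2, against 8.04 in the control. EEF1AKMT2, which methylates a lysine of eEF1A, was at 6.69 in hairpin 1 and 6.12 in hairpin 2, against 8.17 in the control. Both knockdown libraries were below the control for these 2 genes, and for EEF1AKMT2 the mean difference was -0.31 ± 0.25 (SE, limma adjusted p = 1). EIF5A, an elongation and termination factor that carries the amino acid hypusine, was at 915 in hairpin 1 and 916 in hairpin 2, against 793 in the control. Its close relative EIF5A2 was at 1.99 in hairpin 1, 2.24 in hairpin 2 and 2.19 in the control. EIF5AL1, a near-identical copy of EIF5A, was at 1.69 in hairpin 1, 2.53 in hairpin 2 and 1.29 in the control, and reads of such copies could be split between them.

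Among the subunits of eIF2, EIF2S3 stood out in hairpin 2. EIF2S3, the X-linked gamma subunit that binds GTP and the initiator tRNA, was at 49.0 in hairpin 1 and 99.8 in hairpin 2, against 42.8 in the control. Both knockdown libraries were above the control, hairpin 2 by 1.20 on the log2 scale and hairpin 1 by 0.19. It ranked 76th from the highest of 8258 genes in hairpin 2, and its mean difference was 0.70 ± 0.43 (SE, limma adjusted p = 1). EIF2S2, the beta subunit, was at 138 in hairpin 1 and 114 in hairpin 2, against 98.8 in the control, a mean difference of 0.34 ± 0.27 (SE, limma adjusted p = 1). Here both knockdown libraries were above the control and hairpin 1 was the higher. EIF2S1, the alpha subunit that carries the regulatory phosphorylation site, was at 31.7 in hairpin 1, 23.5 in hairpin 2 and 29.5 in the control. The order of the libraries thus differed among the 3 subunits.

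The partners that recharge and restrain eIF2 were near the control. The 5 subunits of eIF2B, the guanine nucleotide exchange factor of eIF2, differed from control by -0.17 to 0.24 in hairpin 1 and by -0.13 to 0.30 in hairpin 2. The 4 kinases that phosphorylate eIF2 alpha differed by -0.24 to 0.03 in hairpin 1 and by -0.47 to 0.18 in hairpin 2. None of these 9 genes reached 1.5-fold in either library. EIF2AK2, which encodes PKR, the sensor of double-stranded RNA, had the lowest difference of all 65 genes in hairpin 2. It was at 11.0 in hairpin 1 and 8.58 in hairpin 2, against 12.25 in the control, a mean difference of -0.30 ± 0.26 (SE, limma adjusted p = 1). EIF2AK3 (PERK, the kinase of endoplasmic reticulum stress) was at 4.08 in hairpin 1 and 4.56 in hairpin 2, against 4.2 in the control, and EIF2AK4 (GCN2, the kinase of amino acid shortage) at 12.5 in hairpin 1 and 13.1 in hairpin 2, against 15.03 in the control.

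The eIF3 genes were near the control in hairpin 1 and higher in hairpin 2, the library with VIM at 311 and CDKN2A at 145. All 14 eIF3 genes were at or above the control in hairpin 2, with a median difference of 0.43 and a range of 0.00 to 0.71, and 4 were at least 1.5-fold higher, or 28.6%, beside 8.69% of all genes tested. Among the 4 is EIF3CL, a near-identical copy of EIF3C. EIF3E and EIF3G, each at 0.60 on the log2 scale, lay close above the 1.5-fold line. With median-of-ratios scaling, the count of all factor genes above that line in hairpin 2 fell from 9 to 6. The share of 28.6% thus rests in part on genes near the line, and was not recounted with that scaling. In hairpin 1 the median was 0.00, with 7 genes above and 7 below the control and a range of -0.44 to 0.68. EIF3M, a subunit of the structural core of the complex, was at 83.4 in hairpin 1 and 123 in hairpin 2, against 78.9 in the control. EIF3E, another subunit of that core, was at 118 in hairpin 1 and 244 in hairpin 2, against 161 in the control. For EIF3E hairpin 1 was below the control (-0.44) and hairpin 2 above it (0.60), and the mean of both differed from control by 0.08 ± 0.45 (SE, limma adjusted p = 1). For EIF3M hairpin 1 was near the control (0.08) and hairpin 2 above it (0.64), with a mean difference of 0.36 ± 0.32 (SE, limma adjusted p = 1).

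Hairpin 2 was also the highest library for several other subunits of eIF3. EIF3A, the largest subunit, was at 9.89 in hairpin 1, 18.2 in hairpin 2 and 11.9 in the control. EIF3G, an RNA-binding subunit, was at 110.2 in hairpin 1, 152 in hairpin 2 and 100.1 in the control. EIF3L, another subunit, was at 290.3 in hairpin 1, 410.3 in hairpin 2 and 304 in the control. By contrast, EIF3H, a core subunit at 387 in hairpin 1, 405 in hairpin 2 and 404 in the control, hardly differed between libraries. EIF3K, a partner of EIF3L, was highest in hairpin 1, at 421, with 372 in hairpin 2 and 368 in the control.

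EIF3CL was at least 1.5-fold above the control in both hairpin libraries. It was at 67.5 in hairpin 1 and 69.2 in hairpin 2, against 41.9 in the control, differences of 0.68 and 0.71 on the log2 scale. The mean difference was 0.69 ± 0.24 (SE), with an unadjusted p of 0.0295 and a limma adjusted p of 1. As it is a near-identical copy of EIF3C, the authors' counting could split reads between them. EIF3C itself was at 74.8 in hairpin 1, 115 in hairpin 2 and 83.2 in the control. The sum of both copies was 142 in hairpin 1 and 184 in hairpin 2, against 125 in the control, which is 0.18 and 0.56 on the log2 scale. For the sum, hairpin 1 no longer stood 1.5-fold above the control.

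Genes of the cap-binding machinery lay on both sides of the control. Over the 10 genes of eIF4F and its helpers the median difference was -0.09 in hairpin 1 and -0.01 in hairpin 2, and 0 reached 1.5-fold in either library. EIF4B, the cofactor of the eIF4A helicase, was at 91.3 in hairpin 1 and 176 in hairpin 2, against 118 in the control. Hairpin 1 was below the control by -0.36 and hairpin 2 above it by 0.58 on the log2 scale, just under the 1.5-fold line, and the mean was 0.11 ± 0.42 (SE, limma adjusted p = 1). EIF4A2, a form of the helicase, was at 392 in hairpin 1 and 388 in hairpin 2, against 521 in the control, and its mean difference was -0.41 ± 0.27 (SE, limma adjusted p = 1). Both knockdown libraries were below the control by a like amount. EIF4A1, the other form, was at 429.8 in hairpin 1, 475 in hairpin 2 and 431 in the control.

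The scaffolds of the eIF4G family did not share 1 order of libraries. EIF4G1, which ties the cap-binding protein to the helicase and to eIF3, was at 161 in hairpin 1 and 127 in hairpin 2, against 174 in the control. EIF4G2, a relative that cannot bind eIF4E, was at 316 in hairpin 1 and 210.2 in hairpin 2, against 273 in the control. Hairpin 1 lay just under the control for EIF4G1 and above it for EIF4G2. The mean difference was -0.29 ± 0.28 for EIF4G1 and -0.08 ± 0.33 for EIF4G2 (SE, limma adjusted p = 1 for both). EIF4G3, a second scaffold of eIF4F, had the other order, at 4.2 in hairpin 1, 7.24 in hairpin 2 and 5.43 in the control. EIF4E, the cap-binding protein itself, differed little, at 11.4 in hairpin 1, 11.2 in hairpin 2 and 11.9 in the control.

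EIF4EBP1, the inhibitor that sequesters eIF4E until mTOR phosphorylates it, was higher in both hairpin libraries. It was at 332 in hairpin 1 and 366 in hairpin 2, against 235 in the control. The gap between the knockdown libraries was smaller than the gap of either to the control. The mean difference was 0.57 ± 0.27 (SE), with an unadjusted p of 0.0757 and a limma adjusted p of 1. EIF4EBP2, a second inhibitor of the family, was at 19.6 in hairpin 1, 23.7 in hairpin 2 and 18.1 in the control.

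Factors that select the start codon and join the subunits were all within 1.5-fold of the control on the log2(value + 1) scale. The nearest to that line was EIF5B in hairpin 2 (0.58), which was 1.57-fold the control by the deposited values. Over the 7 start codon genes the median difference was 0.20 in hairpin 1 and 0.21 in hairpin 2. EIF1, which guards against wrong start codons, was at 645 in hairpin 1 and 578 in hairpin 2, against 500.3 in the control, a mean difference of 0.29 ± 0.28 (SE, limma adjusted p = 1). EIF2A, a protein that is no subunit of eIF2 and has been tied to alternative initiation, was at 38.1 in hairpin 1 and 56.4 in hairpin 2, against 49.75 in the control. Its hairpin libraries lay on opposite sides of the control, with a mean difference of -0.10 ± 0.31 (SE, limma adjusted p = 1). EIF5B, the GTPase that joins the subunits, was at 7.33 in hairpin 1, 11.1 in hairpin 2 and 7.09 in the control. EIF6, which keeps the large subunit from joining too early, was at 179 in hairpin 1 and 109.2 in hairpin 2, against 137 in the control, and its mean difference was 0.03 ± 0.36 (SE, limma adjusted p = 1). It had the order opposite to that of EEF2, with hairpin 1 above and hairpin 2 below the control. EIF4A3, a helicase of the exon junction complex and no part of eIF4F, was at 100.3 in hairpin 1, 78.5 in hairpin 2 and 80.8 in the control.

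The hairpin libraries were also set directly against each other. In hairpin 2, 10 of the 65 genes were at least 1.5-fold higher than in hairpin 1, or 15.4%, beside 9.83% of all genes tested, and 1 was at least 1.5-fold lower, or 1.54%, beside 5.2%. The 1 gene was EIF6. The 10 included EEF2, EEF1A1, EEF1A2 and EEF1G of the elongation factors, EIF3A, EIF3C and EIF3E of eIF3, EIF2S3, EIF4B and EIF4G3. The difference of hairpin 2 from hairpin 1 was 1.59 on the log2 scale for EEF2, which ranked 45th from the highest of 8258 genes, and 1.44 for EEF1A2, which ranked 57th. It was 1.04 for EIF3E, 1.01 for EIF2S3 and 0.94 for EIF4B. There is 1 library of each hairpin, so none of these differences has a test. The high EEF2 of hairpin 2 was known when the genes were chosen, so EEF2 adds no independent support to the count of 10.

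The genes with a TOP-like start had a higher median difference from control in hairpin 2 than the other factor genes with a promoter entry, and a lower one in hairpin 1. A start was counted as TOP-like where an annotated transcript had C at position 1 and nothing but C or T at positions 2 to 5, counted from the first transcribed base and read on the strand of the gene alone, so that matches cannot overlap. It was present in 12 of the 51 genes with an entry, or 23.5%, beside 7.62% of the 9728 genes tested that have an entry, and 4.07% of all 35116 starts in the table. The 12 were EEF1A1, EEF1B2 and EEF2 of the elongation factors, EIF3D, EIF3F, EIF3K and EIF3M of eIF3, EIF2S3, EIF2A, EIF2D, EIF4A2 and EIF4B. Their median difference from control was -0.06 in hairpin 1 and 0.40 in hairpin 2. The other 39 had medians of 0.09 in hairpin 1 and 0.10 in hairpin 2. These medians rest on single libraries and were not tested.

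In hairpin 2, 11 of the 12 genes with the TOP-like start were above the control, and the exception was EIF4A2. Of the 12, 3 were at least 1.5-fold higher in hairpin 2 (EEF2, EIF2S3 and EIF3M), or 25%. Of the other 39, 2 were (EEF1G and EIF5AL1), or 5.13%. EIF3CL, EIF4EBP1, EIF3E and EIF3G were also at least 1.5-fold higher in hairpin 2, but have no promoter entry and are in neither group. The high EEF2 of hairpin 2 was known when the genes and lists were chosen, so EEF2 adds no independent support to the counts or medians given here. Over all genes tested, the split by start was much smaller. The 741 genes with such a start had medians of -0.02 in hairpin 1 and 0.07 in hairpin 2, and 9.18% of them were at least 1.5-fold higher in hairpin 2. The 8987 genes without it had medians of -0.01 and 0.00, and 8.15% were. A match of letters is a description of the annotated start and no evidence of regulation, and the annotated base can differ from the start used in TE-10. EEF1G is an example, since it is known as a TOP mRNA and its annotated start, shown above, does not match. Over 9 genes listed as known TOP mRNAs (EEF1A1, EEF1B2, EEF1D, EEF1G, EEF2, EIF3E, EIF3F, EIF3H and EIF4B) the median was -0.11 in hairpin 1 and 0.52 in hairpin 2. Of the 9, 3 (EEF2, EEF1G and EIF3E) were at least 1.5-fold higher in hairpin 2, or 33.3%, beside 8.69% of all genes tested. EEF1G (0.61) and EIF3E (0.60) lay close above that line. In hairpin 2, EIF3H was level with the control (0.00) and EEF1D below it (-0.21). RPS6, a ribosomal protein whose mRNA is of the same class, was at 1053 in hairpin 1 and 2727 in hairpin 2, against 1085 in the control. Its hairpin 2 difference (1.33) was the largest among the other translation genes listed below, so this 1 gene does not speak for the class.

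**Figure D3:**
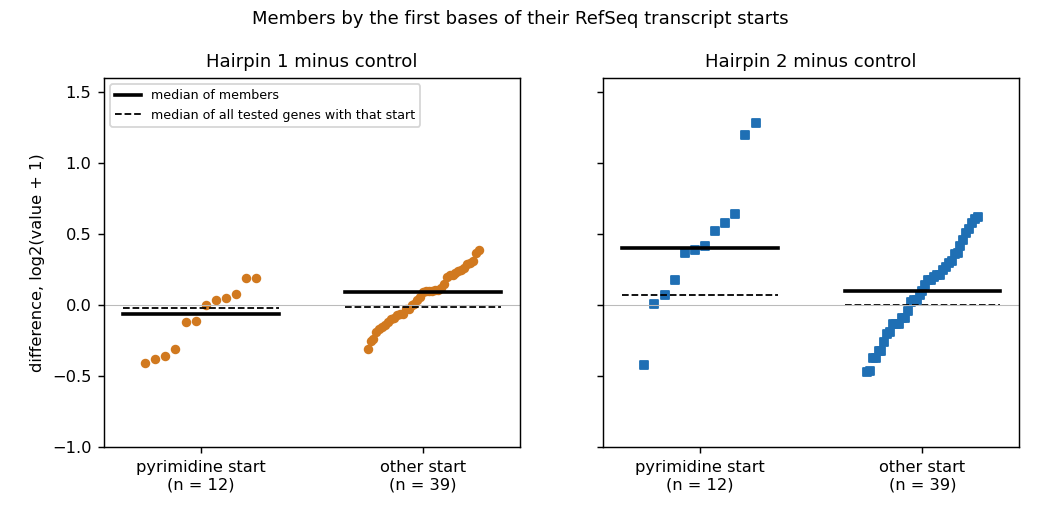
Difference from control on the log2(value + 1) scale in hairpin 1 (left) and hairpin 2 (right) for factor genes with (n = 12) and without (n = 39) a pyrimidine start, 1 point per gene placed in order of value; solid lines are medians of the factor genes and dashed lines medians of all tested genes with the same kind of start. The solid line of the genes with the pyrimidine start is at -0.06 in hairpin 1 and 0.40 in hairpin 2.

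Outside the named factors, other genes of translation were looked at for the same comparison. The list held 57 genes of termination and recycling, poly(A) tail binding, hypusine and diphthamide synthesis, signalling to initiation, initiation helicases and mitochondrial translation, of which 56 were tested. limma called 0 of them at an adjusted p under 0.05. Their median difference from control was 0.01 in hairpin 1 and 0.08 in hairpin 2. In hairpin 1, 0 were at least 1.5-fold from the control, and in hairpin 2, 5 were higher, or 8.93%, about the 8.69% of all genes tested, and 0 lower. The 5 were RPS6 and 4 others. DPH5, an enzyme of the diphthamide modification that eEF2 carries, was at 14.7 in hairpin 1 and 24.5 in hairpin 2, against 13.4 in the control. ATF4, the transcription factor translated when eIF2 alpha is phosphorylated, was at 547 in hairpin 1 and 737 in hairpin 2, against 398 in the control. HBS1L, a factor of ribosome rescue, was at 14.2 in hairpin 1, 21.1 in hairpin 2 and 13.6 in the control, and MRRF, the recycling factor of mitochondrial ribosomes, at 11.2 in hairpin 1, 15.6 in hairpin 2 and 9.49 in the control.

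In cells with normal METTL3, m6A peaks were listed for a smaller share of these genes than of all genes tested. The deposited list held 15940 peaks, of which 30 carried the symbol of 25 factor genes. That is 38.5% of the 65 genes tested, beside 52.4% of all genes tested. With introns and flanks left out, 19 genes or 29.2% had a peak in a coding exon or UTR, beside 42.4% of all genes tested. As peaks are called where a transcript is expressed, genes at 5 or more in the control were also compared; 62 of the 69 genes, or 89.9%, were at that level, beside 45% of the table. Among those 62, 18 had a peak in an exon or UTR, or 29%, beside 42.3% of all genes at that level. The list has no replicates and no score per peak, so no test was made, and neither the number of reads behind a peak nor its strength is known.

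The share of peaks in the 5′ UTR was higher for the factor genes than for the list as a whole. Of the 30 peaks, 9 were in a 5′ UTR, or 30% (95% Wilson interval 16.7 to 47.9%), where 11.6% of all peaks in the list were. Coding exons held 8 (26.7%, interval 14.2 to 44.4%), beside 34.1% of all peaks. The 3′ UTR, where m6A is known to be dense near stop codons, held 4 (13.3%, interval 5.31 to 29.7%), beside 21.5%. Introns held 6, regions upstream of the start 3 and regions downstream 0. Older symbols of 3 more genes add 4 peaks, which brings the 5′ UTR to 9 of 34 (26.5%, interval 14.6 to 43.1%), coding exons also to 9, and the 3′ UTR to 7 (20.6%, interval 10.3 to 36.8%), close to its share in the list. The intervals cover counting error only and treat the peaks as independent, although 5 genes had 2 peaks under their current symbol. Counted as genes, 9 of the 65, or 13.8%, had a peak in the 5′ UTR, beside 10.8% of all genes tested.

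**Figure D4:**
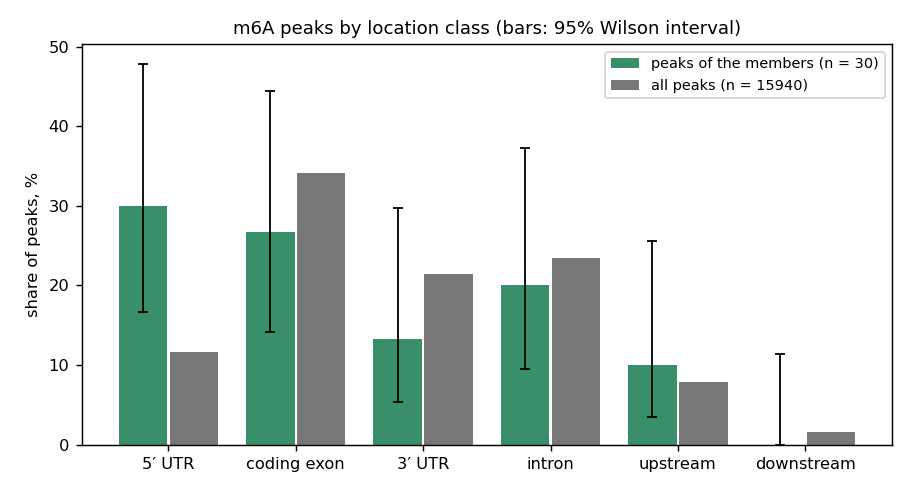
Share of m6A peaks in each location class, in percent, for the 30 peaks of the factor genes (green, with 95% Wilson intervals) and for all 15940 peaks of the list (grey). The 5′ UTR holds 30% of the peaks of the factor genes and 11.6% of all peaks. Counted as genes, 13.8% of the factor genes tested had a 5′ UTR peak, beside 10.8% of all genes tested.

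The 5′ UTR peaks were close to the transcript start. By the authors' distance to the start, 8 of the 9 were within 200 bases of it, as were 58.1% of all 5′ UTR peaks in the list. The 8 were in EIF4G3 (34 bases from the start), EIF2B5 (36), EEF1E1 (45), EIF2S2 (49), EIF4EBP1 (52), EIF2B3 (90), EIF3J (116) and EIF2AK3 (123). They encode subunits of eIF2, eIF2B and eIF3, a kinase of eIF2, a regulator and a scaffold of eIF4F, and the synthetase scaffold EEF1E1. The exception was EIF4A1, at 1506 bases. The list comes from cells with normal METTL3 only, so whether any of these peaks depends on METTL3 was not tested. Peaks in the 3′ UTR were listed for EEF2, EIF2B1, EIF1AD and EIF4ENIF1, a transporter of eIF4E. That of EEF2 spanned chr19:3976175-3976599 in the coordinates of the deposited list, 9074 bases from the start. The build of those coordinates is not taken to be hg38, the build named in the submitters' processing notes, because 2 of the 30 peaks fell within 5000 bases of their gene in GRCh38.p14.

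No factor gene had more than 2 peaks. Those with 2 under their current symbol were EEF1D, EIF2AK3, EIF3A, EIF4ENIF1 and EIF4G3, and EEF2KMT had 2, both in the 3′ UTR, under its older symbol. In EIF3A both lay in coding exons, in EEF1D both in introns, and EIF2AK3 had 1 in the 5′ UTR and 1 in a coding exon. Peak widths ran from 199 to 958 bases with a median of 281.5, beside 315 for the list. Several of the genes at least 1.5-fold from control in a hairpin library, EEF1A2, EIF2S3, EIF3E and EIF3M, had no peak under their symbol. EEF1A1, within 1.5-fold of the control in both hairpin libraries, also had no peak. EEF1G had 1 in a coding exon, and EIF4EBP1 and EEF2 had those named above.

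The factor genes with a peak had slightly lower median differences in expression than those without. The 25 genes with a peak of any class had median differences from control of -0.03 in hairpin 1 and 0.18 in hairpin 2, and the 40 without had 0.07 and 0.23. For peaks in an exon or UTR alone, the 19 genes with a peak had -0.03 and 0.18, and the 46 without had 0.07 and 0.19. In hairpin 2 those medians were thus almost equal. Over all genes tested the medians were -0.02 and -0.03 with a peak of any class, and -0.01 and 0.04 without. The medians with a peak were thus also the lower ones over all genes tested.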

How the data were processed

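RNA-seq and m6A immunoprecipitation libraries were aligned with TopHat2 and counted with HTSeq, and peaks were called with MACS2, per the submitters' processing notes, which name build hg38, without versions or parameters. The deposited expression signal per gene is not a raw count and its scale is not stated, so levels of different genes were not compared. The deposited peak list gives position, location class, gene and distance to the start, in bases, another kind of value with no replicates. Whether the immunoprecipitations were pooled is not stated.

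Values were transformed to log2(value + 1), which understates the change of low genes. Genes that reached a value of 1 in any library were kept. Knockdown was compared with control by limma 3.58.1 (R 4.3.3), with moderated variances, a mean-variance trend and Benjamini-Hochberg adjustment over all 12375 genes; the script was tested on simulated data. Single hairpin libraries were compared with the control by their difference alone, at a threshold of 1.5-fold. The samples were grouped by the genotype and title labels. Peaks were matched by gene symbol. EIF2C1, EIF2C2 and EIF2C4 in the peak list are older names of Argonaute genes and were left out.

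The members and the lists were chosen with earlier results of these data known, among them the high EEF2 of hairpin 2. Statistics were printed for EEF2, EEF1A1, EEF1A2 and, in each hairpin library, the 5 largest and the 5 lowest differences among members with a mean of at least 5; other members of the listed roles were named with their levels, peaks by the members with most peaks or a UTR peak, and other translation genes where a library was 1.5-fold from the control. Alternatives were another pseudocount, no filter or a mean of at least 5, median-of-ratios scaling, quantile normalization, no variance trend, a fold of 2, and, chosen after seeing the data, older symbols for peaks, near-identical copies left out, and the factors without their modifiers and binding proteins.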

Additional observations from a re-analysis of the deposited data

How the results depend on the processing

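limma called 0 genes at an adjusted p under 0.05 in the main analysis and in all 6 other settings, with 123 to 444 genes at an unadjusted p under 0.05. The count of factor genes at least 1.5-fold higher in hairpin 1 was 1 and became 2 with no filter on low values, 0 at a fold of 2, 0 without near-identical copies (EIF3CL left out) and 2 for the mean of both hairpin libraries. The count lower in hairpin 1 was 1 and became 0 for that mean. The count higher in hairpin 2 was 9 and became 2 at a fold of 2, 2 for the mean of both libraries and 7 without near-identical copies. It became 6 with median-of-ratios scaling and 11 with a pseudocount of 0.1. EIF3E, EIF3G and EEF1G lay close above the 1.5-fold line and EIF3A, EIF4B and EIF5B close below it. The median difference of the factor genes ran from 0.03 to 0.06 in hairpin 1 and from 0.15 to 0.22 in hairpin 2 over the scaling, filter and pseudocount settings. Older gene symbols raised the count of genes with a peak to 28 from 25. A fit that leaves out a hairpin library has no residual degrees of freedom, so the differences of single libraries stand in its place. No paired analysis was possible because the control is 1 library without a replicate number. Depth is unknown, which leaves the precision of each level unknown.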
